A study of Mus musculus with 6 samples.

Results

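The enzymes that carry isocitrate to succinate in the tricarboxylic acid (TCA) cycle were examined at the transcript level in mouse tibialis anterior (TA) muscle after knockdown of Yap, the transcriptional effector of the Hippo pathway. They were taken by gene symbol as a list of 9 genes, Idh1, Idh2, Idh3a, Idh3b, Idh3g, Ogdh, Suclg1, Suclg2 and Sucla2, and all 9 were found among the 13226 genes of the count table. Male C57BL/6 mice aged 8 weeks received an intramuscular injection of AAV6:Yap-shRNA into a TA muscle and a control vector into the contralateral one, and both muscles were taken 7 days later for sequencing of polyadenylated RNA (n = 3 muscles in each of 2 groups). AAV6 is an adeno-associated viral vector, the hairpin plasmid carried a CMV promoter, which is not specific to a cell type, and all mice were unmodified apart from the vectors. The control is a LacZ-shRNA vector according to the vector field and an empty vector according to the sample titles, so these muscles are called control here. By the labels each of 3 animals gave one muscle to either group, but which numbers belong to one animal is not stated.

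Isocitrate is oxidised to 2-oxoglutarate (also called α-ketoglutarate) by 2 kinds of mitochondrial enzyme. Idh3, the NAD-linked enzyme of the TCA cycle, is built of α, β and γ subunits encoded by Idh3a, Idh3b and Idh3g, runs in the oxidative direction and is activated by ADP and calcium. Idh2 in mitochondria and Idh1 in the cytosol and peroxisomes are NADP-linked, reversible, and supply NADPH. Ogdh encodes the E1 subunit of the 2-oxoglutarate dehydrogenase complex, which makes succinyl-CoA and NADH. Succinyl-CoA ligase then releases succinate with formation of a nucleoside triphosphate. Its α subunit, encoded by Suclg1, pairs with either an ADP-specific β subunit (Sucla2) or a GDP-specific β subunit (Suclg2), and the ADP-specific form is known as the main one in muscle.

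The libraries held 11987167 to 12710393 counts, and levels are given below as CPM, counts scaled to library size with TMM factors, for replicates 1, 2 and 3 of a group in turn. Yap1, the targeted gene, stood at 71.2, 65.3 and 68.4 CPM in the controls and at 32.0, 23.9 and 39.5 CPM after Yap-shRNA, which is 46.5% of control by group means. All 3 Yap-shRNA muscles lay below all 3 control muscles (log2 fold change -1.10, standard error 0.16). The adjusted p over all genes was 0.323 by edgeR's quasi-likelihood test, 5.85e-07 by DESeq2 and 1.72e-06 by edgeR's likelihood ratio test. The labelled tissue was checked by 8 fast muscle fibre genes, which took 15.4 to 18.3% of the counts. Control 1 and Yap-shRNA 3 stood apart in connective tissue transcripts. The 7 measured tendon markers summed to 690 and 568 CPM in these muscles against 131 to 183 CPM in the other 4, and the 5 fibroblast markers to 1956 and 2227 CPM against 1002 to 1187 CPM. The 8 measured liver markers ranged from 0.957 to 460 CPM and were highest in control 3.

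None of the 9 enzymes passed an adjusted p of 0.05 in the comparison of Yap-shRNA with control muscles by edgeR's quasi-likelihood test, which called 0% of the 13113 genes tested. All 9 enzymes passed the filter on low counts. At an unadjusted p under 0.05, 1.61% of all genes and none of the 9 enzymes were called, and the smallest unadjusted p among the enzymes was 0.259, for Suclg2. The share of 1.61% is below what evenly spread p-values would give, so this test was cautious here. Without control 1, the same test put 936 of 13156 genes under 0.05, none of them an enzyme (smallest p 0.0688). With any other muscle left out, 127 to 285 genes were under 0.05. DESeq2 and the likelihood ratio test called 5 genes each, limma-voom called 0, and none of these calls was an enzyme of the list. The 95% intervals of the 9 fold changes ran from 71.1% of control at the lowest (Suclg2) to 124% at the highest (Idh2). In whole muscle, fewer cells of a type and less RNA per cell cannot be told apart.

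**Figure D1:**
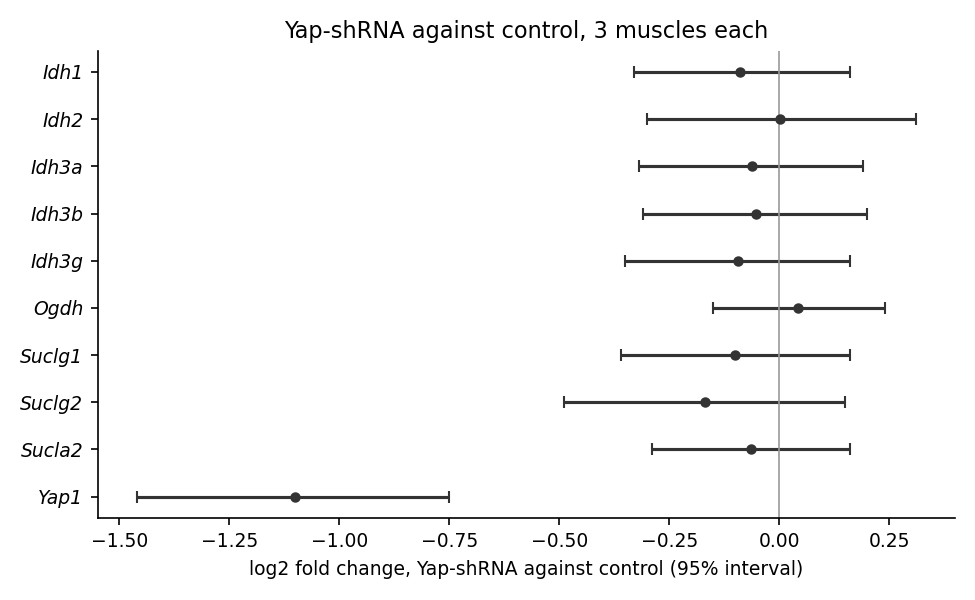
Log2 fold changes (x axis, Yap-shRNA against control, 3 muscles each) of the 9 enzymes and Yap1 from edgeR's quasi-likelihood fit, with points for estimates and bars for 95% intervals. The intervals of all 9 enzymes include 0, and that of Yap1 runs from -1.46 to -0.75.

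The NAD-linked enzyme was measured through its 3 subunit genes. Idh3a (ENSMUSG00000032279, catalytic α subunit; GRCm38 chromosome 9, 54586334 to 54604661, plus strand, 11 exons) stood at 748, 975 and 918 CPM in the controls and at 822, 859 and 847 CPM after Yap-shRNA. The Yap-shRNA values lay between the lowest and the second control value, and the log2 fold change was -0.063 (standard error 0.11). Idh3b (ENSMUSG00000027406, β subunit; chromosome 2, 130279309 to 130284547, minus strand, 12 exons) stood at 640, 785 and 775 CPM in the controls and at 759, 711 and 649 CPM after Yap-shRNA (log2 fold change -0.054, standard error 0.11). It overlaps the opposite-strand gene Nop56 over 0.146% of its exon length, and the strand setting of the counting is not given in the sources used here. Idh3g (ENSMUSG00000002010, regulatory γ subunit; chromosome X, 73778963 to 73786897, minus strand, 13 exons) stood at 421, 541 and 498 CPM in the controls and at 473, 471 and 426 CPM after Yap-shRNA. Its log2 fold change was -0.093 (standard error 0.11). All 3 subunit genes were lowest in control 1 and highest in control 2, so the spread among control muscles covered the whole range of each gene. The control means were 880 ± 118 CPM for Idh3a, 733 ± 81.3 CPM for Idh3b and 487 ± 61.0 CPM for Idh3g (SD, n = 3), and the Yap-shRNA means were 843 ± 18.9, 706 ± 55.3 and 456 ± 26.6 CPM in the same order.

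The NADP-linked genes were lower in level and did not share that order of muscles. Idh2 (ENSMUSG00000030541; chromosome 7, 80094846 to 80115392, minus strand, 11 exons) stood at 131, 149 and 142 CPM in the controls and at 160.0, 150.1 and 112 CPM after Yap-shRNA. The highest and the lowest of the 6 values were thus both Yap-shRNA muscles. The group means were 141 ± 8.84 CPM and 141 ± 25.3 CPM (SD, n = 3), with a log2 fold change of 0.0011 (standard error 0.14, 95% interval -0.30 to 0.31). Idh1 (ENSMUSG00000025950; chromosome 1, 65158616 to 65186500, minus strand, 9 exons) was counted 341 to 404 times per library. It stood at 29.5, 30.8 and 33.1 CPM in the controls and at 29.4, 26.2 and 32.2 CPM after Yap-shRNA, and the groups overlapped. Its log2 fold change was -0.089 (standard error 0.11, 95% interval -0.33 to 0.16). Its counting error at these reads was 5.17%, close to the spread between control muscles (coefficient of variation 5.85%) and below that between Yap-shRNA muscles (10.3%).

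Levels of different genes were compared as CPM per kilobase of the principal transcript, averaged over the 6 muscles. The order was Idh3b (445), Idh3a (359), Idh3g (354), Ogdh (295), Suclg1 (271), Sucla2 (230), Idh2 (80.6), Idh1 (13.1) and Suclg2 (8.07). Idh3a and Idh3g did not differ beyond their spread, with Idh3a the higher in 3 of 6 muscles. Ogdh was above Suclg1 in 5 of 6 muscles, and every other neighbour in the order was above the next in all 6. The step from Sucla2 to Idh2 was 2.86-fold and that from Idh2 to Idh1 was 6.15-fold, so both NADP-linked genes stood below all 3 NAD-linked subunit genes in each muscle. The upper part of the order depended on the length used. Ogdh ranked first when all annotated exons were merged and Idh3a ranked first by coding length, whereas Idh2, Idh1 and Suclg2 kept ranks 7, 8 and 9 by all 3 lengths.

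**Figure D2:**
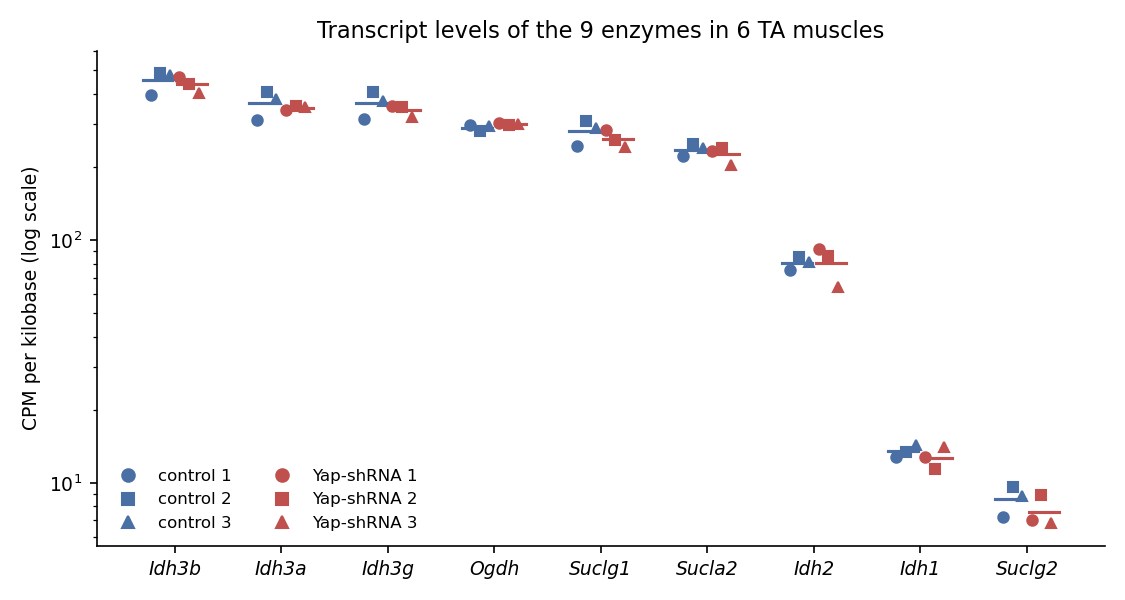
Transcript level of each enzyme in CPM per kilobase of principal transcript (y axis, log scale) in 3 control (blue) and 3 Yap-shRNA (red) muscles, with lines at the group means. The order runs from Idh3b, at 396 to 486, to Suclg2, at 6.82 to 9.62, and the 2 groups overlap in all genes but Ogdh.

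The balance of NADP- and NAD-linked transcripts was compared within each muscle, where a ratio needs no scaling between libraries. Idh2 per kilobase was 0.241, 0.210 and 0.213 of Idh3a in the controls and 0.268, 0.241 and 0.182 of Idh3a after Yap-shRNA. The control values lay inside the range of the Yap-shRNA values. The difference in log2 ratio was 0.04 (exact permutation test, two-sided, p = 1.0, where 3 muscles against 3 allow no p under 0.10). Cytosolic Idh1 was 17.1, 15.7 and 17.6% of mitochondrial Idh2 in the controls and 13.9, 13.2 and 21.8% after Yap-shRNA (log2 difference -0.079, exact permutation p = 0.90). Yap-shRNA 1 and 2 lay below the controls in this ratio and Yap-shRNA 3 above them. Over both groups, the Idh2 to Idh3a ratio was 22.5% by principal transcript, 32.0% by merged exons and 13.2% by coding length, so its size rests on the length chosen while the comparison between groups does not.

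The ratios among subunits of the NAD-linked enzyme spread less between muscles. The ratio of Idh3b to Idh3a was 1.27, 1.20 and 1.26 in the controls and 1.37, 1.23 and 1.14 after Yap-shRNA (log2 difference 0.0026, exact permutation p = 1.0). Idh3g to Idh3a was 1.02, 1.00 and 0.98 in the controls and 1.04, 0.989 and 0.907 after Yap-shRNA (log2 difference -0.033, exact permutation p = 0.80). The SD of the log2 Idh3g to Idh3a ratio was 0.025 among control muscles, compared with 0.11 for Idh2 to Idh3a. In Yap-shRNA muscles these SDs were 0.098 and 0.29. With the ratio of the succinyl-CoA ligase β subunits, 5 ratios were tested, and the adjusted p was 1.0 for each.

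**Figure D3:**
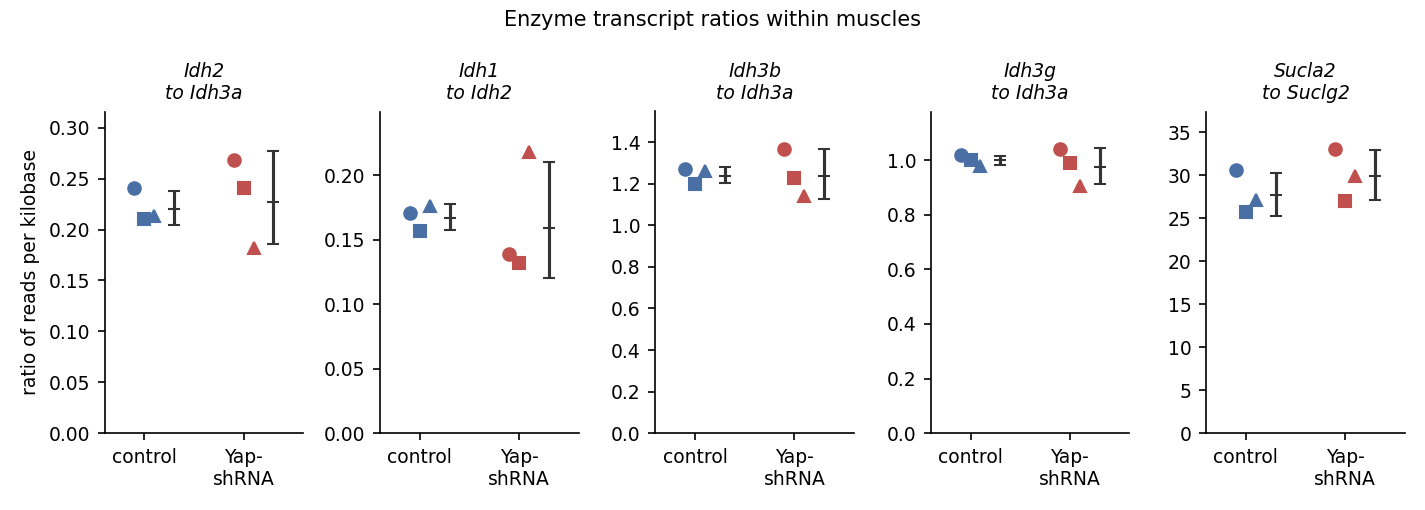
Ratios of reads per kilobase of principal transcript (y axis, starting at 0) for 5 gene pairs in control (blue) and Yap-shRNA (red) muscles, where circles, squares and triangles are replicates 1, 2 and 3 and bars show the mean ± SD of the log2 ratio drawn back on the linear scale. The 2 groups overlap in every pair, and the spread is wider in Yap-shRNA muscles for the 4 isocitrate dehydrogenase pairs.

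Ogdh (ENSMUSG00000020456; chromosome 11, 6291633 to 6356642, plus strand, 23 exons), the gene of the 2-oxoglutarate dehydrogenase E1 subunit, was the most counted of the 9. It stood at 1222, 1158 and 1216 CPM in the controls and at 1246, 1225 and 1234 CPM after Yap-shRNA. It was the only enzyme of the list whose groups did not overlap, all Yap-shRNA muscles lying above the highest control, where 5.27% of all genes had groups that did not overlap in either direction. The difference was small, with means of 1199 ± 35.4 and 1235 ± 10.5 CPM (SD, n = 3) and a log2 fold change of 0.043 (standard error 0.086, 95% interval -0.15 to 0.24). The exact permutation p was 0.10, the smallest that 3 against 3 allow. Groups that do not overlap always give this p, so it adds nothing to the lack of overlap. The adjusted p of Ogdh over all genes was 1.0 by edgeR. The lowest and the highest muscle differed by 7.58%. The SD of log2 CPM within groups was 0.032 for Ogdh, which puts it at percentile 0.221 of all genes, and of the 101 genes within 2-fold of its abundance 1 had a smaller SD (median of these genes 0.14). This property of Ogdh was picked after its values were seen. The genes of the other 2 subunits of the complex, Dlst (E2) and Dld (E3, which the pyruvate dehydrogenase complex also uses), had log2 fold changes of -0.039 and -0.057, and the groups overlapped in both.

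Ogdh was also the one enzyme of the list with a match to a searched motif near an annotated start. Of its 3 windows with a match, 2 are shown here, and the third largely repeats the second of them. RefSeq windows on GRCm38.p6, each from 250 bases before to 50 after a start, were found for 8 of the 9 genes (14 windows, 6 of them at Ogdh), and Idh3a had none in the table used here. Both strands were searched for GGAATG (the core of the site of TEAD, through which Yap binds DNA), AAGGTCA (a site of estrogen-related receptors, which act on mitochondrial genes) and GCGCATGC (the core of the site of the mitochondrial biogenesis factor NRF1). These letters are found in 14.7, 4.72 and 2.71% of the 32817 windows of all genes. GGAATG was in none of the 14 windows. AAGGTCA was in 1 window, at an alternative Ogdh start, and GCGCATGC in 2 overlapping windows of 2 further Ogdh starts, which share this match. The windows are given on the plus strand, 5′ to 3′, with the matched letters in capitals, the first match reading on the minus strand. The matches are descriptions of letters, and no binding was measured in these samples.
Ogdh chr11:6291920-6292219: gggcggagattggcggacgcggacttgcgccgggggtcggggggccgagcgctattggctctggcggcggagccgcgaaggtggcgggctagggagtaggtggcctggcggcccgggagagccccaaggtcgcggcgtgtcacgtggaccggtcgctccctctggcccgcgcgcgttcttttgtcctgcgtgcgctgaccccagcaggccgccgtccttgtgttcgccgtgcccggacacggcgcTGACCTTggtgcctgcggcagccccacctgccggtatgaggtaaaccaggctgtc
Ogdh chr11:6292308-6292607: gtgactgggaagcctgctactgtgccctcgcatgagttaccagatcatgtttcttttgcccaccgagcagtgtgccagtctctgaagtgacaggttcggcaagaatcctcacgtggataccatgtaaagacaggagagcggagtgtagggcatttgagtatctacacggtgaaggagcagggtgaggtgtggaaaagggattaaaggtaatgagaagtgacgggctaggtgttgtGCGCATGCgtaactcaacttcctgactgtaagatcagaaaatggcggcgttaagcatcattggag
The first match begins 5 bases before its annotated start and the second begins 15 bases before the start of the window shown and 36 bases before that of the overlapping window. The 14 windows of the enzymes held 49.3 to 72.3% G and C, against a median of 52.7% over all windows, and 11 to 37 CG dinucleotides, against a median of 7.

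The last step, from succinyl-CoA to succinate, was measured through 3 genes. Suclg1 (ENSMUSG00000052738, shared α subunit; chromosome 6, 73248382 to 73276911, plus strand, 9 exons) stood at 371, 469 and 438 CPM in the controls and at 433, 392 and 367 CPM after Yap-shRNA (log2 fold change -0.10, standard error 0.12). Sucla2 (ENSMUSG00000022110, ADP-specific β subunit; chromosome 14, 73525319 to 73596142, plus strand, 11 exons) stood at 493, 551 and 531 CPM in the controls and at 517, 535 and 454 CPM after Yap-shRNA (log2 fold change -0.065, standard error 0.10). In both genes the groups overlapped and Yap-shRNA 3 was the lowest muscle. Suclg2 (ENSMUSG00000061838, GDP-specific β subunit; chromosome 6, 95473009 to 95718800, minus strand, 11 exons) stood at 24.4, 32.4 and 29.6 CPM in the controls and at 23.7, 30.0 and 23.0 CPM after Yap-shRNA. Its log2 fold change of -0.17 (standard error 0.14, 95% interval -0.49 to 0.15) was the furthest from 0 among the 9 enzymes, and Yap-shRNA 2 lay above control 1 and 3. The means were 28.8 ± 4.08 and 25.5 ± 3.85 CPM (SD, n = 3).

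Sucla2 exceeded Suclg2 per kilobase by 30.6-, 25.7- and 27.1-fold in the controls and by 33.0-, 27.0- and 29.9-fold in Yap-shRNA muscles (log2 difference 0.11, exact permutation p = 0.50). The ADP-specific β subunit was thus the main transcript of the pair in every muscle. The fold was 28.6 over both groups by principal transcript, 21.9 by merged exons and 17.7 by coding length. Suclg2 shares 16.0% of its annotated runs of 50 bases with the processed pseudogene Gm15163, on which 64 to 113 reads per library were counted, equal to 16.5 to 32.6% of the Suclg2 counts, so its level is uncertain. When those reads were added to Suclg2, the ratio ran from 20.9 to 26.0 and the log2 difference was 0.06 (exact permutation p = 0.60). Suclg1 shares 0.258% of such runs with other genes, and the other 7 enzymes share none.

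Of the 9 log2 fold changes, 7 were negative and 2 positive, with a median of -0.065, whereas 51.0% of all genes tested were negative, with a median of -0.0025. The position of single muscles was larger than this shift. With 1 muscle left out, the median of the enzymes ran from -0.14 (without control 1) to -0.01 (without control 2). Control 1 was the lowest muscle for Idh3a, Idh3b and Idh3g, and Yap-shRNA 3 for Idh2, Suclg1, Suclg2 and Sucla2, which together are 7 of 9 enzymes. Among all genes, 22.2% were lowest in control 1 and 14.1% in Yap-shRNA 3. Control 2 was the highest muscle for 6 of the 9, against 23.8% of all genes. Control 1 and Yap-shRNA 3 are the muscles with the tendon and fibroblast transcripts described above, and the part of that tissue in the enzyme levels was not tested. Without these 2 muscles, an alternative chosen after seeing the data, the log2 fold changes ran from -0.21 (Suclg2) to 0.094 (Idh2). Of the 9, 7 were again negative, with a median of -0.14 against 0.0005 over all genes. The adjusted p by edgeR was 0.905 to 0.968. In that fit 4 genes were called, among them Yap1 (adjusted p 0.0375) and none of the enzymes.

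**Figure D4:**
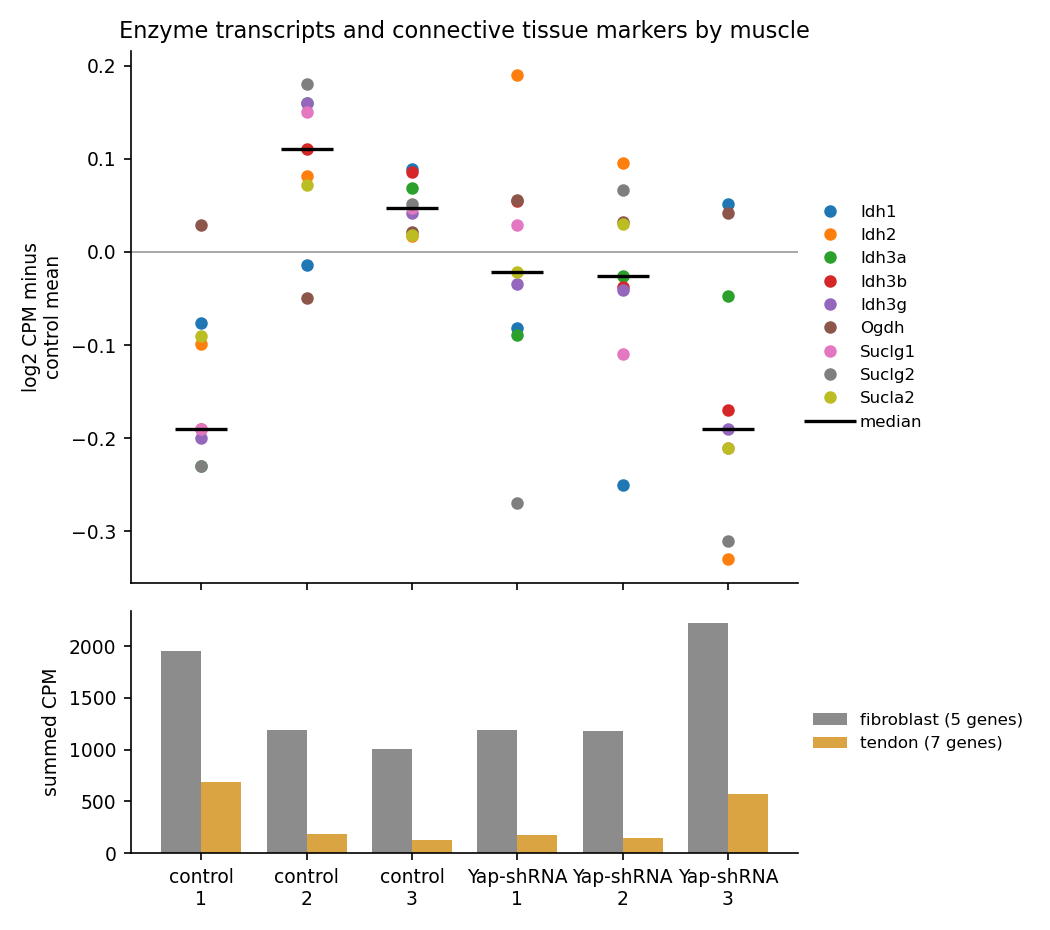
Upper panel, log2 CPM of each enzyme minus its mean over control muscles (y axis) in each of the 6 muscles, with black lines at the median over the 9 enzymes. Lower panel, summed CPM of 5 fibroblast markers (grey) and 7 tendon markers (yellow) in the same muscles. The median of the enzymes is lowest in control 1 and Yap-shRNA 3, where the marker sums are highest, and Ogdh stays between -0.049 and 0.056.

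The other marker sums in whole muscle are given beside these results because mitochondrial enzymes are known to differ between fibre types and cell types. The 9 slow or oxidative fibre genes summed to 3836, 4956 and 4389 CPM in the controls and to 4855, 3809 and 4160 CPM in Yap-shRNA muscles, so the groups overlapped. Mb (myoglobin) made up most of this sum, at means of 3950 and 3830 CPM. The log2 fold changes of the 9 genes ran from -0.44 (Tnni1) to 0.88 (Myl2). Myl2, at 2.00 and 3.70 CPM, was the one slow fibre gene whose groups did not overlap, against 5.27% of all genes. Its unadjusted p was 0.0126 by edgeR, where 1.61% of all genes were under 0.05, and it did not pass the adjusted threshold. The 8 fast muscle fibre genes all had negative log2 fold changes, from -0.17 (Mylpf) to -0.0019 (Atp2a1), where 51.0% of all genes were negative. The groups overlapped in each of these 8 genes, and the part of fast fibre RNA in the enzyme levels was not tested. The 10 macrophage markers ranged from 63.7 to 137 CPM in control and from 109 to 148 CPM in Yap-shRNA muscles. Each of them had a positive log2 fold change, from 0.089 (Cd14) to 0.72 (Cd68). Only the groups of Cd163 did not overlap (log2 fold change 0.55, unadjusted p = 0.0537 by edgeR). The 7 measured adipocyte markers ranged from 498 to 568 CPM in control and from 550 to 603 CPM in Yap-shRNA muscles. Lpl (364 and 393 CPM) and Plin4 (152 and 141 CPM), which muscle also expresses, made up most of the adipocyte sum. The other 5 adipocyte markers, Adipoq, Plin1, Cfd, Cidec and Retn, were at means of 1.14 to 11.5 CPM in the controls against 2.02 to 23.4 CPM after Yap-shRNA. Their log2 fold changes ran from 0.82 to 1.14, and the groups overlapped in each. The 5 endothelial markers ranged from 284 to 341 and from 303 to 329 CPM, and the 5 measured erythroid markers from 120 to 203 and from 101 to 242 CPM. Their part in the enzyme levels was not tested.

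The similarity of patterns across the 6 muscles is a description, since all points share their libraries and few points give high correlations by themselves. With the mean log2 CPM of Idh3a, Idh3b and Idh3g, Pearson's r was 0.937 for Suclg1, 0.794 for Suclg2, 0.792 for Sucla2, 0.586 for Idh2, 0.188 for Idh1 and -0.659 for Ogdh (6 muscles). Idh1 and Idh2 had an r of -0.458. The genes most like the Idh3 mean were Atp5f1 (a subunit of mitochondrial ATP synthase, r = 0.994), Scrn2 (0.994) and Mkks (0.992), out of 136 genes at 0.95 or more. Those most like Idh2 were Gnpat (a peroxisomal enzyme of ether lipid synthesis, 0.991), Arfrp1 (0.986) and BC051226 (0.986), and those most like Idh1 were Btrc (0.987), Gtf2i (0.981) and 4931406C07Rik (0.978). For Idh2 and Idh1, 24 and 27 genes reached 0.95.

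The neighbouring reactions were read from 6 lists of 56 tested genes in all, and none of them passed an adjusted p of 0.05 by edgeR. Of the other 10 TCA cycle genes, 8 had negative and 2 positive log2 fold changes, with a median of -0.047, from -0.079 for Sdhb (succinate dehydrogenase iron-sulfur subunit) to 0.01 for Sdhc (its membrane anchor). Their summed level was 6914, 8068 and 7813 CPM in the controls and 7622, 7471 and 7115 CPM in Yap-shRNA muscles, again lowest in control 1 and highest in control 2. The 11 genes of pyruvate dehydrogenase and its kinases and phosphatases had a median of -0.047, with 7 negative and 4 positive values, from -0.20 (Pdk3, a kinase) to 0.32 (Pdp2, a phosphatase). Both of these genes were at 66 or fewer counts per library. The 13 other enzymes of 2-oxoglutarate that were measured had a median of -0.0053, with 8 negative and 5 positive values, from -0.19 for D2hgdh (D-2-hydroxyglutarate dehydrogenase) to 0.23 for Adhfe1 (hydroxyacid-oxoacid transhydrogenase).

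Among the 10 genes listed as other sources of NADPH, 5 values were negative and 5 positive, with a median of 0.03. The list includes Me2 (0.14) and Mthfd2 (0.19), which encode mainly NAD-linked enzymes. G6pdx (glucose-6-phosphate dehydrogenase, the entry of the pentose phosphate pathway) was the one of the 56 genes with an unadjusted p under 0.05, near the background of 1.61% of all genes. It was counted 49, 41 and 42 times in the controls and 52, 77 and 83 times in Yap-shRNA muscles, or at 3.81, 3.43 and 3.45 CPM against 4.36, 5.91 and 6.62 CPM. All Yap-shRNA muscles lay above all controls, with a log2 fold change of 0.66 (standard error 0.21, unadjusted p = 0.0101 and adjusted p = 1.0 by edgeR), so the gene failed the correction over all genes. Pgd, the following dehydrogenase of that pathway, was the only other of the 56 genes whose groups did not overlap, against a background of 5.27% of all genes, with means of 20.0 CPM in control and 22.9 CPM in Yap-shRNA muscles (log2 fold change 0.20). It was picked after its values were seen. Aldh1l2, a mitochondrial folate enzyme, had the lowest value of the list (-0.68, standard error 0.67), with 74 reads in control 1 and 7 to 41 in the other muscles.

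The 6 measured carriers of citrate, isocitrate and 2-oxoglutarate and their cytosolic partners had 4 negative and 2 positive values, with a median of -0.03. Their values ran from -0.11 for Mdh1 (cytosolic malate dehydrogenase) to 0.49 for Slc25a1 (the citrate carrier, standard error 0.29), and the groups overlapped in both. The 6 measured succinyl-CoA users and mitochondrial deacylases had 4 negative and 2 positive values, with a median of -0.09, from -0.13 for Sirt5 (a desuccinylase) to 0.036 for Alas2 (erythroid haem synthesis).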

How the data were processed

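Total RNA of whole TA muscle was extracted with TRIzol and polyadenylated RNA was sequenced with TruSeq libraries. The submitters' processing notes name bcl2fastq 2.20.0.422 and GRCm38, and the aligner, counter and strand setting are not given in the sources used here. The authors deposited raw read counts per gene without normalisation (13226 genes, none below 60 counts over the 6 libraries). All 6 columns were matched to samples by name.

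The counts were scaled by TMM (factors 0.9688 to 1.0463) and filtered with filterByExpr, which left 13113 genes, and tested with edgeR 4.0.16 under R 4.3.3 (two-sided quasi-likelihood test of group, no covariate), adjusting by Benjamini-Hochberg over all genes with a threshold of 0.05. The biological coefficient of variation was 15.1%. Single ratios of reads per kilobase, without a pseudocount, and the CPM of Ogdh were compared by exact permutation over muscles. A pseudocount of 0.5 reads was used as an alternative. Libraries of a group gave a chi-square per degree of freedom of 7.62 to 21.4 against each other, so none repeated another. Gene models came from GENCODE M21 on GRCm38 (13204 genes matched) and promoter windows from RefSeq. The pipeline was tested on simulated data.

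The enzymes and lists were chosen with earlier results of these data known. The text names the 9 enzymes, Yap1, the largest rise and fall of each pathway list, and the 3 genes most like Idh1, Idh2 and the Idh3 mean. Dlst, Dld, Pgd, the fast fibre, slow fibre, macrophage and adipocyte markers and the pseudogene Gm15163 were named after values were seen. Alternatives were DESeq2 1.42.0, the likelihood ratio test, limma-voom (limma 3.58.1), upper-quartile and RLE scaling, other count filters, a replicate block, other gene lengths and leaving out muscles. Mean values carry the SD over 3 muscles, which covers animal and library variation together.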

Additional observations from a re-analysis of the deposited data

How the results depend on the processing

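None of the 9 enzymes was called in any of the 15 alternative fits. Over all genes, 5 were called by DESeq2, 5 by the likelihood ratio test, 4 without control 1 and Yap-shRNA 3 together, and 0 to 1 when 1 muscle was left out (1 without control 1 and 1 without Yap-shRNA 3). Idh2, at 0.0011, changed sign with limma-voom (-0.014) and with the replicate block (-0.013), and ran from -0.10 to 0.14 with 1 muscle left out, being negative without control 1, Yap-shRNA 1 or Yap-shRNA 2. Idh3a ran from -0.17 to 0.017 (positive without control 2), Idh3b from -0.14 to 0.0026 and Sucla2 from -0.11 to 0.002 (both positive without Yap-shRNA 3). The cause was not tested. Of the log2 ratio differences with 1 muscle left out, Idh2 to Idh3a ran from -0.078 to 0.20 (negative without Yap-shRNA 1 or 2), Idh1 to Idh2 from -0.31 to 0.053 (positive without Yap-shRNA 1 or 2), Idh3b to Idh3a from -0.068 to 0.066 (negative without control 2 or Yap-shRNA 1), Idh3g to Idh3a from -0.077 to 0.02 (positive without Yap-shRNA 3), and Sucla2 to Suclg2 from 0.035 to 0.18. Without control 1 and Yap-shRNA 3 together these differences were 0.26, -0.30, 0.083, 0.032 and 0.18 in the same order, with an unadjusted exact permutation p of 0.333, the smallest that 2 muscles against 2 allow, to 0.667. Idh1, Idh3g, Ogdh, Suclg1 and Suclg2 kept their sign in all 15 fits. Yap1 ran from -1.29 to -0.93 with 1 muscle left out. The labels do not say which numbers share an animal, so the numbers were not taken as pairs. Deviations of muscles of the same number correlated at -0.062, 0.225 and -0.266, which with 3 muscles a group cannot decide the pairing. With the replicate block, 0 genes were called, as in the main fit, and Yap1 was at -1.13 (adjusted p 0.07 by edgeR). With 3 muscles a group, the intervals of single enzymes in the report give the precision, and Yap1 at 46.5% of control was itself not called by the quasi-likelihood test.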
